A study of Arabidopsis thaliana with 6 samples.

Results

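COR15A, COR15B, COR47 and LTI30 are cold-responsive genes of Arabidopsis thaliana, and each was read by 1 probe set that names that gene alone. They are 4 of 13350 genes named in this way, and their 4 probe sets are among 22746 plant probe sets on the arrays. Transcript levels were measured in seedlings of the esd7-1 mutant and of Ler, the wild type it was set against, with 3 Affymetrix arrays per genotype. Each array came from RNA of its own pool of plants. The plants were 14 days old, grew in short days at 22 °C and were collected 8 h after dawn, and the labels name no cold treatment. Ler stands for Landsberg erecta, an accession that is known to carry a mutation in the ERECTA receptor kinase gene. ESD7 encodes the catalytic part of the replicative DNA polymerase epsilon. Its transcript was not analysed here, so the mutant labels were not checked against it.

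In the cold, plants induce the CBF transcription factors, which bind a short element in the promoters of COR (cold-regulated) genes and switch them on. Many of these genes also respond to drought and to the hormone abscisic acid. Their products protect cells against freezing and water loss. COR15A and COR15B are small proteins of the chloroplast stroma that stabilise membranes. COR47 and LTI30 are dehydrins, which are very hydrophilic, largely unstructured proteins of the late embryogenesis abundant (LEA) class.

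All levels are log2 values made by RMA, a method that corrects background, equalises the distribution of the arrays and summarises the probes of a probe set. A difference of 1 on this scale is a 2-fold difference. The arrays had medians of 4.83 to 4.88 in esd7-1 and of 4.81 to 4.89 in Ler. Esd7-1 replicate 3 had a narrower spread of levels than the others. Its 25th and 75th percentiles were 3.94 and 6.56, against 3.76 to 3.84 and 6.71 to 6.83 on the rest. The arrays fell into unequal sets by control RNAs of bacterial origin, which averaged 6.18 on esd7-1 replicate 3 and 6.84 on Ler replicate 2, and 5.47 to 5.60 on the other 4. Those with the high values are called the 2 arrays that stood apart. The 3′ minus 5′ difference of the actin, GAPDH and ubiquitin control probe sets was 1.04 and 1.16 on these 2 arrays and 1.40 to 1.90 on the other 4. A control for 25S ribosomal RNA read 8.99 and 9.66 on the 2 replicates numbered 1 and 4.69 to 5.77 on the others. The labels give no batch, scan or extraction that would account for these splits.

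None of the 4 genes passed the test between esd7-1 and Ler. The test was limma across all 22746 probe sets with Benjamini-Hochberg adjustment at 0.05, and it called 0% of them. Without adjustment 1315 probe sets, or 5.78%, had a p under 0.05, and none of the 4 genes was among them. For COR15A, COR15B and COR47 the intervals of the genotype difference stayed within 0.85 in either direction, while that of LTI30 spanned -2.53 to 2.80. LTI30 varied far more between the arrays of each genotype than between genotypes.

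COR15A read 9.17, 9.08 and 9.37 in esd7-1 replicates 1 to 3, against 9.45, 8.38 and 9.22 in Ler replicates 1 to 3. The genotypes overlapped, and Ler replicate 2 was lower than all the other arrays. Esd7-1 averaged 9.21 ± 0.15 and Ler 9.02 ± 0.56 (SD, n = 3 each), a log2 difference of 0.19 with a 95% confidence interval of -0.47 to 0.85 (limma, adjusted p = 0.897). Without Ler replicate 2 the difference was -0.13, so its sign rested on that array.

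COR15B read 10.41, 10.52 and 10.58 in esd7-1, against 10.58, 10.17 and 10.76 in Ler. All 3 esd7-1 values lay between the lowest and the highest Ler value, and Ler replicate 2 was again the lowest of the 6. Both genotypes averaged 10.50, with an SD of 0.09 in esd7-1 and of 0.30 in Ler (n = 3 each). The log2 difference was 0 with an interval of -0.39 to 0.39. COR15B and COR15A are next to each other on chromosome 2 in the gene table. They encode similar proteins, and how far their probes read each other's transcript was not tested.

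COR47 read 10.91, 10.53 and 11.33 in esd7-1, against 10.80, 10.65 and 10.61 in Ler. Esd7-1 replicate 3 was the highest of the 6 arrays and esd7-1 replicate 2 the lowest, so the Ler values lay inside the range of the mutant. Esd7-1 averaged 10.92 ± 0.40 and Ler 10.69 ± 0.10 (SD, n = 3 each), a log2 difference of 0.24 with an interval of -0.25 to 0.72 (limma, adjusted p = 0.847). Without esd7-1 replicate 3 the difference was 0.03, and without esd7-1 replicate 2 it was 0.43 with an interval of 0.03 to 0.84 (limma, adjusted p = 0.487).

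LTI30 read 5.0, 4.83 and 8.24 in esd7-1, against 5.06, 7.69 and 4.91 in Ler. In each genotype 1 array was high, esd7-1 replicate 3 and Ler replicate 2, and the other 4 arrays lay between 4.83 and 5.06. Esd7-1 averaged 6.02 ± 1.92 and Ler 5.89 ± 1.56 (SD, n = 3 each). The log2 difference of 0.14 came with a standard error of 1.11, and its adjusted p in limma was 0.982. It was -0.97 without esd7-1 replicate 3 and 1.04 without Ler replicate 2.

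**Figure D1:**
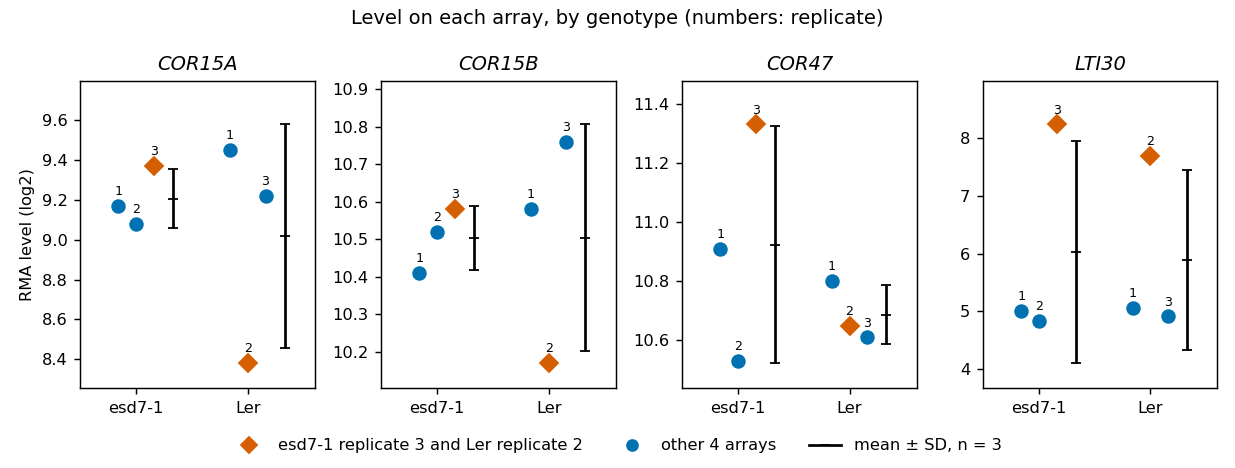
RMA level (log2) of the 4 genes on each of the 6 arrays, with esd7-1 left of Ler, the replicate number above each point and a bar for the mean ± SD of the 3 arrays of a genotype. Diamonds are esd7-1 replicate 3 and Ler replicate 2, where LTI30 read 8.24 and 7.69, against 4.83 to 5.06 on the other 4 arrays (circles).

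LTI30 had been picked in earlier results of these data for its high level on the arrays that stood apart. A wide spread within each genotype follows from that choice, so the rank of LTI30 by spread is no separate finding. The spread of LTI30 was among the widest on the arrays. Its SD within a genotype, averaged over the genotypes, was 1.74, against a median of 0.17 over all probe sets, and 19 of 22746 probe sets had a larger one. The same quantity was 0.36 for COR15A, 0.25 for COR47 and 0.19 for COR15B. A larger one was found in 11.6% of all probe sets for COR15A, in 27.2% for COR47 and in 42.1% for COR15B. COR15B, the stromal partner of COR15A, thus varied about as much as a typical probe set.

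Differences between esd7-1 replicate 3 with Ler replicate 2 and the other 4 arrays are given as a description, without a test. This division was known from earlier results of these data, in which LTI30 had been picked for its high level on the 2 arrays. Each value is the mean of the differences within esd7-1 and within Ler. At least 1 higher on the 2 arrays were 369 of 22746 probe sets, or 1.62%, and at least 1 lower were 0.831%. All values of the 2 arrays lay above those of the other 4 for 13.7% of probe sets, and below them for 14.3%.

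LTI30 averaged 7.96 on the 2 arrays and 4.95 on the other 4, a log2 difference of 3.02 or 8.08-fold. The difference was 3.33 within esd7-1 and 2.71 within Ler, and the 2 arrays lay above the other 4 without overlap. It was the 19th highest of the 22746 differences. On the other 4 arrays LTI30 read 4.83 to 5.06, close to the array medians, where RMA compresses differences. No detection calls were used here, so whether its transcript was detected on those arrays is not known.

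The other 3 genes overlapped between the 2 arrays and the other 4. COR15A averaged 8.88 on the 2 arrays and 9.23 on the other 4, and its difference was 0.25 within esd7-1 and -0.96 within Ler. COR15B averaged 10.38 on the 2 arrays and 10.57 on the other 4, and its difference was 0.12 within esd7-1 and -0.50 within Ler. COR47 averaged 10.99 on the 2 arrays and 10.71 on the other 4, with 0.61 within esd7-1 and -0.06 within Ler. All 3 genes thus read highest among the mutant arrays on the one that stood apart. In Ler the stromal pair read lowest on the array that stood apart, while COR47 read 10.65 there, between the 10.80 and 10.61 of the other Ler arrays. The 2 dehydrins differed from each other on this division: LTI30 was 3.02 higher on the 2 arrays and COR47 0.28 higher.

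**Figure D2:**
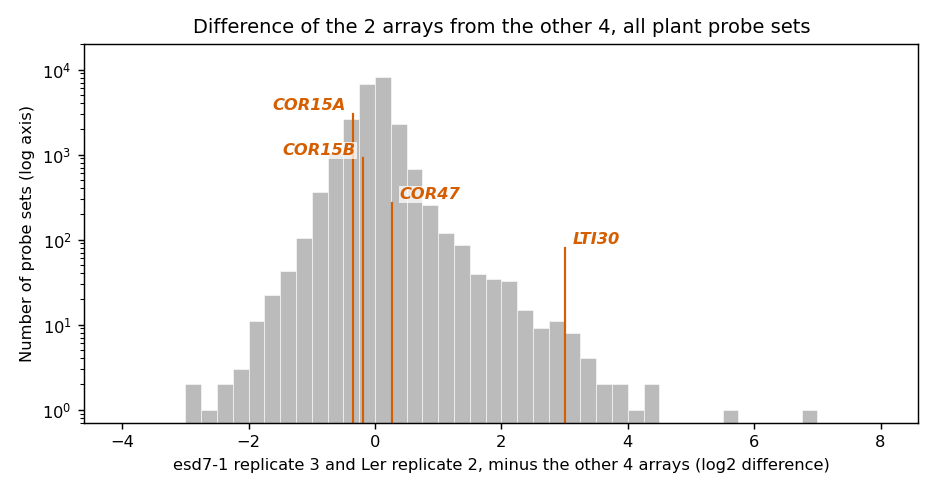
Number of plant probe sets (log axis) by the log2 difference of esd7-1 replicate 3 and Ler replicate 2 minus the other 4 arrays, with lines at the 4 genes. LTI30, at 3.02, stands in the upper tail, and COR15A, COR15B and COR47, at -0.36, -0.19 and 0.28, stand in the body of the distribution.

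The genotype difference was also read separately in the 2 sets of arrays. Between esd7-1 replicate 3 and Ler replicate 2 it was 0.99 for COR15A, 0.41 for COR15B, 0.68 for COR47 and 0.55 for LTI30. Among the other 4 arrays it was -0.21 for COR15A, -0.21 for COR15B, 0.02 for COR47 and -0.07 for LTI30. All 4 genes thus read higher in the mutant array of the first set, which holds 1 array per genotype and gives no measure of error. The median over all 22746 probe sets was 0 in the first set and 0.01 in the second.

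A limma fit with a term for the 2 arrays changed the precision for LTI30. Its genotype difference of 0.14 then had a standard error of 0.15 and an interval of -0.22 to 0.49, against -2.53 to 2.80 without the term. The adjusted p was 0.737, and those of COR15A, COR15B and COR47 were 0.764, 1 and 0.617 in limma. With both arrays left out the interval of LTI30 was -0.37 to 0.23. Neither fit called any of the 4 genes. The term was chosen with these data known, and LTI30 had been picked for its high level on the same 2 arrays. Its narrower intervals in these fits follow from that choice.

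**Figure D3:**
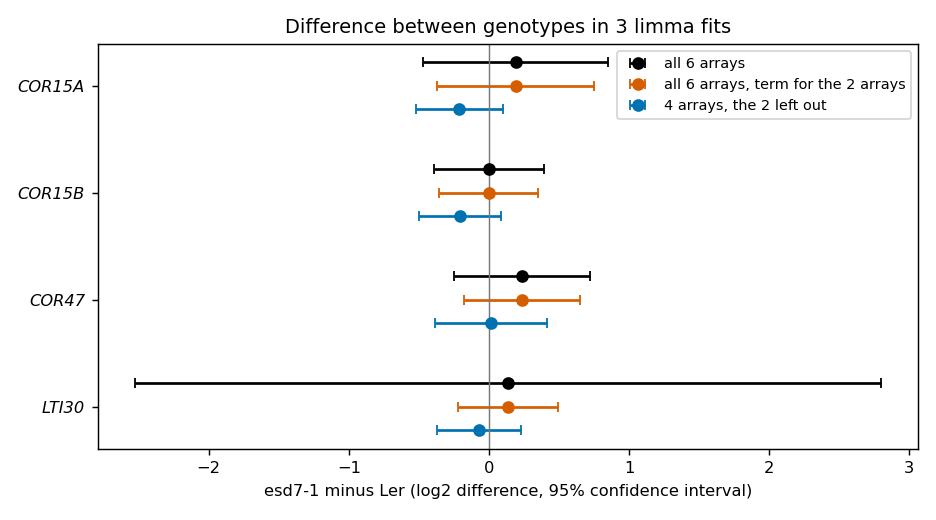
Log2 difference of esd7-1 minus Ler (horizontal axis) for the 4 genes, with 95% confidence intervals unadjusted for the number of probe sets, in limma fits of all 6 arrays, of all 6 with a term for esd7-1 replicate 3 and Ler replicate 2, and of the 4 arrays left without them. The interval of LTI30 is -2.53 to 2.80 in the first fit and -0.22 to 0.49 in the second, and all 12 intervals include 0.

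The 4 genes were compared with each other and with all named genes by their pattern over the 6 arrays. The measure was the root-mean-square difference of log2 values after each probe set was centred on its own mean. COR15A and COR15B were the closest pair among the 4, at 0.23. COR47 was 0.34 from COR15A and 0.31 from COR15B. LTI30 was 1.6 from COR15A, 1.52 from COR15B and 1.29 from COR47, so its pattern was unlike that of the other dehydrin too.

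The genes nearest to LTI30 were AT4G39675 at 0.08, AT5G44380 at 0.15, OSM34 at 0.15, AT4G22212 at 0.20 and AT5G47980 at 0.24. OSM34 encodes an osmotin-like protein, a class known to accumulate under osmotic stress and infection. It read 4.60, 4.61 and 8.23 in esd7-1, against 4.80, 7.69 and 4.60 in Ler, which placed the same 2 arrays high. AT4G39675 read 3.64, 3.58 and 6.83 in esd7-1, against 3.53, 6.31 and 3.57 in Ler. The differences of the 5 genes between the 2 arrays and the other 4 ranged from 2.83 to 3.31. These genes were found by likeness on the same arrays, so their pattern is no separate support for that of LTI30.

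**Figure D4:**
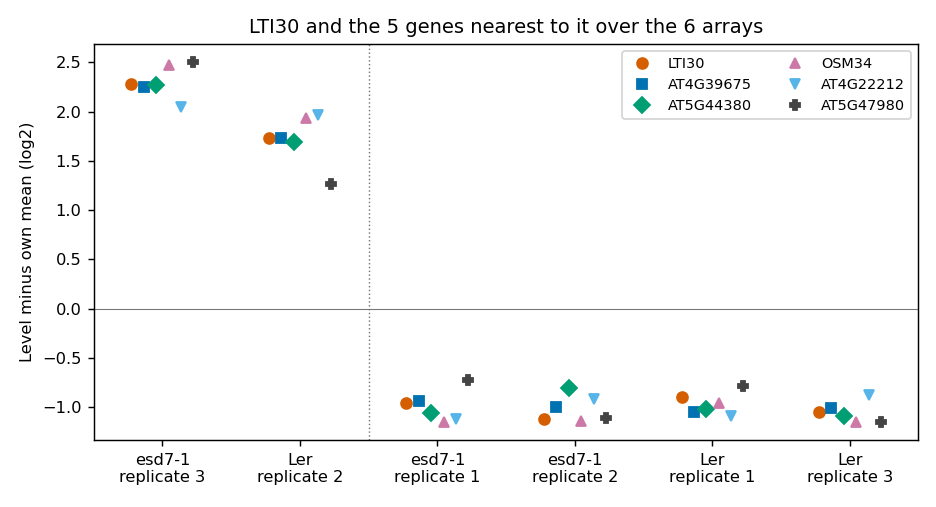
Log2 level minus the gene's own mean over the 6 arrays for LTI30 and the 5 genes nearest to it, with esd7-1 replicate 3 and Ler replicate 2 left of the dotted line. All 6 genes lie above their mean on these 2 arrays and below it on the other 4, and LTI30 read 8.24 and 7.69 on the 2.

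The nearest genes of the other members had narrow ranges of their own. Those of COR15A lay at 0.12 to 0.14 and were AT1G10850, AT5G53880, AT1G19200, AT5G59480 and AT1G11700. Those of COR15B lay at 0.06 to 0.07 and were GSTU18, a tau-class glutathione transferase, AT5G25940, GH3.3, which conjugates auxin to amino acids, AT2G34450 and NGA2, a NGATHA transcription factor. Those of COR47 lay at 0.03 to 0.05 and were AT1G01130, AT5G03620, CYP79A2, a cytochrome P450, AT1G01660 and AT3G51350. The genes nearest to COR47 read 3.41 to 4.80, where RMA compresses differences, against 10.53 to 11.33 for COR47 itself. These 15 genes depended on single arrays and on scaling: without esd7-1 replicate 3 none of them stayed among the nearest 5, and after a second quantile normalization 3, 1 and 2 did. For LTI30 all 5 stayed after that normalization, and 2 without esd7-1 replicate 3.

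Of the other dehydrin and LEA genes, 9 of 18 listed loci had a named probe set, and none passed in either direction. Their genotype differences ranged from 0.06 to 0.48 with a median of 0.22, and all 9 lay above 0, or 8 of 9 with a median of 0.17 after a second quantile normalization. Over all probe sets the median was 0.01 and 51.3% lay above 0. Among dim probe sets, those under the 40th percentile by mean level, the median was 0.07 and 73.7% lay above 0, against 0.01 and 52.4% after that normalization. Of the 9 genes, the 1 without overlap between genotypes was AT1G54410, the 11 kDa dehydrin HIRD11, and 5.64% of all probe sets were higher and 5.69% lower in esd7-1 without overlap.

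HIRD11 read 11.24, 11.08 and 11.58 in esd7-1, against 10.88, 10.84 and 10.74 in Ler. The log2 difference was 0.48 (standard error 0.15), and it did not pass (adjusted p = 0.806, limma). AT4G39130 differed by 0.31 and AT3G22490 by 0.26, and their highest values on any array were 4.04 and 3.93. On the 2 arrays minus the other 4, the 9 genes ranged from -0.19 for AT3G15670 to 0.22 for HIRD11, and AT4G38410 differed by 0.22. None of these other dehydrin and LEA probe sets thus came near the 3.02 of LTI30, which had been picked for its high level on the 2 arrays. HIRD11 and AT2G44060 read 9.42 or more on every array. The others read at most 4.92 on any array, where RMA compresses differences. AT4G39130, AT3G22490, AT3G15670 and AT4G38410 were listed by locus. Their symbols and synonyms in the gene table do not name a dehydrin, late embryogenesis or cold.

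Another 9 probe sets were taken by a gene symbol or synonym that names a dehydrin, an LEA protein or cold, and 4 of them are also among the 9 above. None passed, and the median genotype difference was 0.16, against 0.01 over all probe sets. Of the 9, 3 were higher in esd7-1 without overlap, against 5.64% of all probe sets. These 3 were HIRD11, already counted above, COR27 and AT2G46140. COR27, a cold-regulated gene that also acts in the circadian clock, read 9.45, 9.04 and 8.95 in esd7-1, against 8.88, 8.74 and 8.64 in Ler. It differed by 0.39 and did not pass (adjusted p = 0.846, limma). AT2G46140, described as LEA27, read 4.66, 4.64 and 4.98 in esd7-1, against 4.32, 4.49 and 4.33 in Ler.

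On the 2 arrays minus the other 4, the same 9 probe sets ranged from -0.16 for COR27 to 0.57 for SRC2, with a median of 0.02. Of the 9, 2 read higher on both of the 2 arrays than on any other, SRC2 and LEA18, against 13.7% of all probe sets. SRC2, described as an Arabidopsis counterpart of a cold-regulated soybean gene, read 9.21, 9.02 and 9.76 in esd7-1, against 9.20, 9.68 and 9.17 in Ler. Its difference on the 2 arrays was 0.57. LEA18 read 3.75, 3.65 and 3.94 in esd7-1, against 3.69, 4.45 and 3.52 in Ler, and differed by 0.54 on the 2 arrays. The shifts of both genes on the 2 arrays were thus in the direction of LTI30 and smaller. That of LEA18 was 0.24 within esd7-1 and 0.845 within Ler. LEA18 read at most 4.45 on any array, where RMA compresses differences.

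Few genes of the wider cold and drought response were measured. Of 15 listed cold-induced effector genes other than the 4 described here, COR27 and AT4G33980 had a named probe set. AT4G33980 read 7.64, 7.65 and 7.93 in esd7-1, against 7.08, 8.10 and 7.06 in Ler, and was 0.66 higher on the 2 arrays without overlap. COR27 differed by -0.16 on the 2 arrays, with overlap. Of 17 listed regulators of the cold response 1 was measured, the zinc finger repressor STZ, which was 0.87 higher on the 2 arrays, also without overlap. Over all probe sets 13.7% were higher on the 2 arrays without overlap. STZ read 5.53, 5.47 and 6.55 in esd7-1, against 5.07, 5.62 and 4.79 in Ler, with overlap. Its genotype difference of 0.69 did not pass (limma, adjusted p = 0.846), nor did it with the term for the 2 arrays (limma, adjusted p = 0.162). Of 18 listed drought and osmotic stress effectors 1 was measured, OSM34, which differed by 0.12 between genotypes with an adjusted p of 0.986 in limma. The 26 listed genes of abscisic acid synthesis and signalling, the CBF factors among the regulators, RD29A, KIN1, ERD10 and RAB18 were not analysed here.

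**Figure D5:**
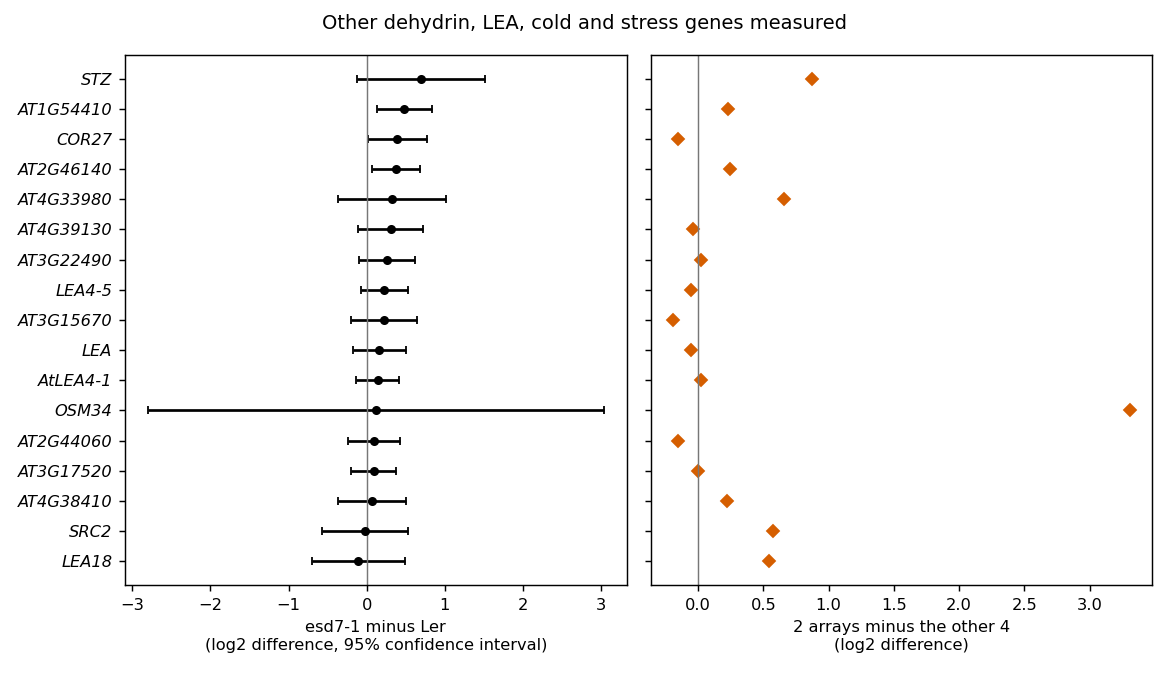
Log2 differences of the 17 measured genes of the dehydrin, LEA, cold and drought lists: esd7-1 minus Ler with 95% confidence intervals unadjusted for the number of probe sets (left), and esd7-1 replicate 3 with Ler replicate 2 minus the other 4 arrays (right). OSM34, at 3.31 in the right panel, lies far from the others, the highest of which is STZ at 0.87, and none of the 17 passed the adjusted test between genotypes.

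Root markers were higher on the same 2 arrays. Of 11 listed root markers 3 were measured, PYK10, EXPA7 and EXPA18. All 3 were higher on the 2 arrays than on any other, as were 13.7% of all probe sets. Their mean level was 7.0 to 7.35 on the 2 arrays and 6.24 to 6.52 on the other 4, and their differences were 1.31, 0.86 and 0.32. PYK10 read 10.42 to 11.98 over the 6 arrays. EXPA7 read 3.67 to 5.0 and EXPA18 4.49 to 5.07, near or below the array medians, where RMA compresses differences. Between genotypes the mean level of the 3 was 6.24 to 7.35 in esd7-1 and 6.29 to 7.0 in Ler, and none passed. Of 12 listed photosynthetic markers 2 were measured, RCA and PSAN, and they differed by 0.17 and 0.08 on the 2 arrays, RCA without overlap and PSAN with it. Both kinds of marker were read on all 6 arrays of these whole seedlings, and none of the 10 listed seed markers was analysed here. The part of root content, of the bacterial controls and of the 3′ minus 5′ difference in the level of LTI30 was not tested. In whole seedlings, a change in the share of a tissue and a change in RNA per cell cannot be told apart.

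Genes beside the 4 in chromosome order were read as well, within 5 genes on either side in the gene table. Of these, 11 other genes had a named probe set. On the 2 arrays minus the other 4 they ranged from -0.55 to 0.26, and the 4 beside LTI30 on chromosome 3 from -0.11 to 0.19. The difference of 3.02 in LTI30 was not shared by the neighbours that were measured. Over all probe sets only 1.62% were at least 1 higher on the 2 arrays, so 4 neighbours cannot set LTI30 apart from its region. XERO1, the dehydrin gene next to LTI30, and ERD10, the dehydrin gene next to COR47 on chromosome 1, were not analysed here.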

How the data were processed

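The authors deposited log2 expression levels per probe set, given to 2 decimals. RMA and limma appear in the submitters' processing notes with no version, and no other setting is given there. RMA equalises the arrays, which removes any shift common to all transcripts. Groups and replicate numbers came from the sample titles. Of 22810 probe sets, 64 controls were left out.

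In the supplied platform annotation 13513 probe sets carry 1 gene, 503 carry several and 8730 are unnamed. Of the 13513, 13436 matched RefSeq's gene table (TAIR10.1), used for names and gene order.

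Genotypes were compared by limma 3.58.1 under R 4.3.3 with lmFit and eBayes, two-sided, genotype being the only term. The p-values were adjusted (Benjamini-Hochberg) over the 22746 plant probe sets. The code was tested on simulated data. The number of arrays limits the precision, and no 2 arrays shared more than 2.38% of values. An array stood apart if its mean bacterial control, which holds no plant RNA, lay over 0.5 above the median.

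Named genes are the members, every measured gene of lists with up to 6, otherwise the 3 largest differences by genotype and by the 2 arrays, and the 5 nearest genes per member. Members, lists and tests were chosen with earlier results of these data known, and the neighbours in gene order were added after the files were seen. Alternatives were the replicate block, a term for the 2 arrays or their removal, each array left out, a trended and robust variance, array weights, a second quantile normalization, median centring and a filter on dim probe sets.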

Additional observations from a re-analysis of the deposited data

How the results depend on the processing

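None of the 4 genes passed under any alternative run, and the lowest adjusted p of a member was 0.408 in limma. With the replicate block the genotype differences stayed at 0.19 for COR15A, 0 for COR15B, 0.24 for COR47 and 0.14 for LTI30, and 0 probe sets were called. Same-numbered arrays deviated from their group means with correlations of 0.54 for number 1, -0.41 for number 2 and -0.60 for number 3. The 2 arrays that stood apart carry different numbers, so these values cannot tell whether the numbers pair the arrays. Called probe sets numbered 0 with all 6 arrays, 4 with the term for the 2 arrays, 4 with both left out, 33 with array weights, and between 0 and 1 when single arrays were left out (1 without esd7-1 replicate 3). The count was also 0 after a second quantile normalization, after median centring, without dim probe sets and with a trended, robust variance.

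Genotype differences that changed sign, or for COR15B left 0 by more than its standard error, were, with both arrays left out, COR15A -0.21, COR15B -0.205, LTI30 -0.07, AT4G38410 -0.095, OSM34 -0.095 and LEA18 0.095. Among differences that kept their sign there, COR47 was 0.015, AT4G33980 0.575, AT4G39130 0.105, AT3G15670 0.10, EXPA7 0.05, EXPA18 0.035 and SRC2 -0.07, each more than 1.5 times from its value with all 6 arrays. With array weights, those that changed sign or left 0 were COR15A -0.019, COR15B -0.187, LTI30 -0.174, OSM34 -0.275 and LEA18 0.046. After a second quantile normalization, those that changed sign were AT4G38410 -0.014 and SRC2 0.056. With each array left out the ranges were COR15A -0.128 to 0.407, COR15B -0.167 to 0.128, COR47 0.033 to 0.433, LTI30 -0.972 to 1.038, AT4G38410 -0.088 to 0.202, OSM34 -1.092 to 1.113, PYK10 -0.275 to 0.602, EXPA7 -0.143 to 0.522, EXPA18 -0.033 to 0.257, RCA -0.187 to 0.0083, SRC2 -0.235 to 0.145 and LEA18 -0.29 to 0.175. The arrays that set the members' ranges were Ler replicates 1 and 2 for COR15A, Ler replicates 2 and 3 for COR15B, esd7-1 replicates 3 and 2 for COR47, and esd7-1 replicate 3 and Ler replicate 2 for LTI30.

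The difference of the 2 arrays from the other 4 was 0.245 for COR15A, 0.115 for COR15B, 0.61 for COR47, 3.325 for LTI30 and 0.26 for AT4G39130 within esd7-1. It was -0.955, -0.5, -0.055 and 2.705 for the 4 members in turn within Ler. With each array left out it ranged from -0.955 to 0.245 for COR15A, -0.5 to 0.115 for COR15B, -0.055 to 0.61 for COR47, 2.705 to 3.325 for LTI30 and -0.345 to 0.26 for AT4G39130. PSAN turned to -0.015 after a second quantile normalization. LTI30 kept its direction in each of these. It had been picked for its high level on both of the 2 arrays, so this is no separate support. The cause of the turned values was not tested. Levels near the array medians, such as LTI30 on the other 4 arrays, limit what a difference there can show.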
